A study of Mus musculus with 4 samples.

Results

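The nuclear genes for the subunits of the respiratory chain were followed through RNA sequencing of mouse pancreatic islets. Members were chosen by name and gene type alone. They are the protein-coding rows whose symbol begins with Nduf followed by a, b, c, s or v and a digit (complex I), with Uqcr (complex III), with Cox4 to Cox8 (complex IV) or with Atp5 (complex V), plus Sdha, Sdhb, Sdhc and Sdhd (complex II). This gave 85 of 54532 rows. Complex I held 37, complex II 4, complex III 8, complex IV 18 and complex V 18.

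Islets came from male C57BL/6 mice aged 10 to 12 weeks, and 4 libraries were made, each from 1 ug of total RNA. The wild type gave 2 libraries (wild type 1 and wild type 2), and mice with a miR-29a/b-1 transgene, made to overexpress these microRNAs specifically in pancreatic beta cells, gave the other 2 (transgenic 1 and transgenic 2). The labels give neither the promoter of the transgene nor whether a library holds 1 mouse or a pool, so the spread between libraries of a genotype may be technical. In whole islets, fewer cells of a type and less RNA per cell cannot be told apart, and a change in beta cells is seen mixed with all other islet cells.

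The respiratory chain sits in the inner mitochondrial membrane. Complexes I and II pass electrons from NADH and succinate to coenzyme Q, complex III passes them to cytochrome c and complex IV to oxygen, and the proton gradient built on the way drives complex V, the ATP synthase. Complexes I, III, IV and V hold subunits from both the nuclear and the mitochondrial genome, whereas complex II is nuclear throughout. In beta cells this machinery couples glucose to insulin release, because the ATP it makes closes the potassium channels that hold the membrane at rest.

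Values are FPKM, a count of fragments scaled by gene length and a library total, so levels of different genes are compared per length. Recovered reads in genes ranged from 21670854 to 27080907 per library. The total behind the FPKM was 0.957 (wild type 2) to 1.09 (transgenic 1) times those reads, by a factor not given in the sources used here. Rescaling by the median ratio between libraries left the genotype calls at 0 and the members' median at -0.06. A count of 0 allowed up to 0.1157 to 0.1428 FPKM for a gene of 1 kilobase. All 8 beta cell markers were present and took 38.8% to 55.0% of the summed FPKM. Libraries of the same number lay closest. Over the 80 members compared, the correlation of log2(FPKM + 1) values (Pearson) reached 0.992 for the libraries numbered 1 and 0.995 for those numbered 2, but 0.949 within the wild type and 0.96 within the transgenic genotype (across genes, which are not independent). The labels do not say what the numbers 1 and 2 stand for. Genotype differences are therefore also given within each number, and where 2 values are given for a genotype, that of number 1 stands first.

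The transgene encodes 2 mature microRNAs that share their seed, the bases 2 to 8 that pair with messenger RNA. They are shown because the seed decides which subunit genes could pair with them. The seed is in capitals, and sequences and positions are from RefSeq on GRCm38.p6 (Mir29a at chr6:31062673-31062694 and Mir29b-1 at chr6:31063025-31063047, minus strand).
mmu-miR-29a-3p: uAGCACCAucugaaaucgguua
mmu-miR-29b-3p: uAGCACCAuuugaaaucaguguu
The 7 bases that pair with this seed, TGGTGCT, were found in the 3′ UTR of 3 of the 82 members with a 3′ UTR long enough to search (3.66%). Among compared protein-coding genes as a whole, 1744 of 10689 (16.3%) held the match. These shares are not adjusted for the length searched. The members' mRNAs are short, with a median of 729 bases against 2785 for other compared coding genes. The part of length in the lower share was not tested. The 3 members were Sdhc, a membrane anchor of complex II, Ndufb8, a supernumerary subunit of complex I, and Atp5g1, a gene for the c subunit of complex V, which held 2 matches. All annotated coding transcripts of a gene were searched. The Sdhc match and the first Atp5g1 match lie in the messenger RNA whose length is used here, while the Ndufb8 match and the second Atp5g1 match lie only in longer annotated transcripts, of at least 2142 and 4660 bases. Which transcripts the islets make was not tested. Each match is shown in capitals with its neighbouring bases, read along the messenger RNA from GENCODE M21 on GRCm38.
Sdhc (chr1:171128673-171128699, minus strand): gctttgtttgTGGTGCTaggggtcaaa
Ndufb8 (chr19:44549020-44549046, minus strand): acactgcatgTGGTGCTcagacattca
Atp5g1, first (chr11:96073035-96073061, minus strand): atgccagtccTGGTGCTggagtctact
Atp5g1, second (chr11:96072817-96072843, minus strand): gtaatgatgtTGGTGCTttgtcacttt

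None of these 3 genes passed the test between genotypes. Sdhc measured 22.5 and 18.7 FPKM in the wild type and 23.0 and 18.6 with the transgene, a log2 difference of transgenic minus wild type of 0.01 ± 0.19 (SE, n = 2 libraries per genotype). Atp5g1 measured 8.57 and 9.8 against 9.53 and 8.74 FPKM, a difference of -0.01 ± 0.14. Ndufb8 measured 9.45 and 17.8 against 11.7 and 17.2 FPKM, a difference of 0.11 ± 0.36. Within numbers 1 and 2 the differences were 0.03 and -0.01 for Sdhc, 0.14 and -0.15 for Atp5g1 and 0.28 and -0.05 for Ndufb8. In Sdhc and Ndufb8 the libraries paired by number, not by genotype. A match is a description of the sequence and does not show that the microRNA acts there.

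The first question was how strongly islets express each complex. Of the 85 members, 80 reached 1 FPKM in at least 2 libraries and were compared. The 5 others were near or at 0. Cox6b2 reached at most 0.301 FPKM, Cox7b2 0.176 and Cox8b 0.107, while Cox8c and a second row named Atp5o (chr16:91684398-91926982, wholly inside other exons) had 0 reads in every library. The compared members were abundant genes with short messages. Their median mean level was 35.6 FPKM against 6.1 for 10773 other compared coding genes, 76 of the 80 stood above the median of compared coding genes, and their median mRNA length was 729 bases against 2785. Together the 85 members took 0.771% and 0.911% of the summed FPKM in the wild type and 0.89% and 0.918% with the transgene. They were spread over 19 chromosomes, with 3 on X.

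Complex IV had the highest typical level and complex I the lowest. The median of the members' mean levels was 73.0 FPKM in complex IV (14 compared), 54.9 in complex III (8), 40.1 in complex V (17), 38.3 in complex II (4) and 30.6 in complex I (37). Complex I had the lowest median and complex IV the highest in each of the 4 libraries. For several members the deposited gene length is far longer than the messenger RNA. Counted per kilobase of mRNA instead, a scale chosen after seeing the data, complex I stayed lowest with a median of 45.7, complex II had 61.0, and complexes V, IV and III had 105, 115 and 121. Members are not replicates, so no test was made between complexes.

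**Figure D1:**
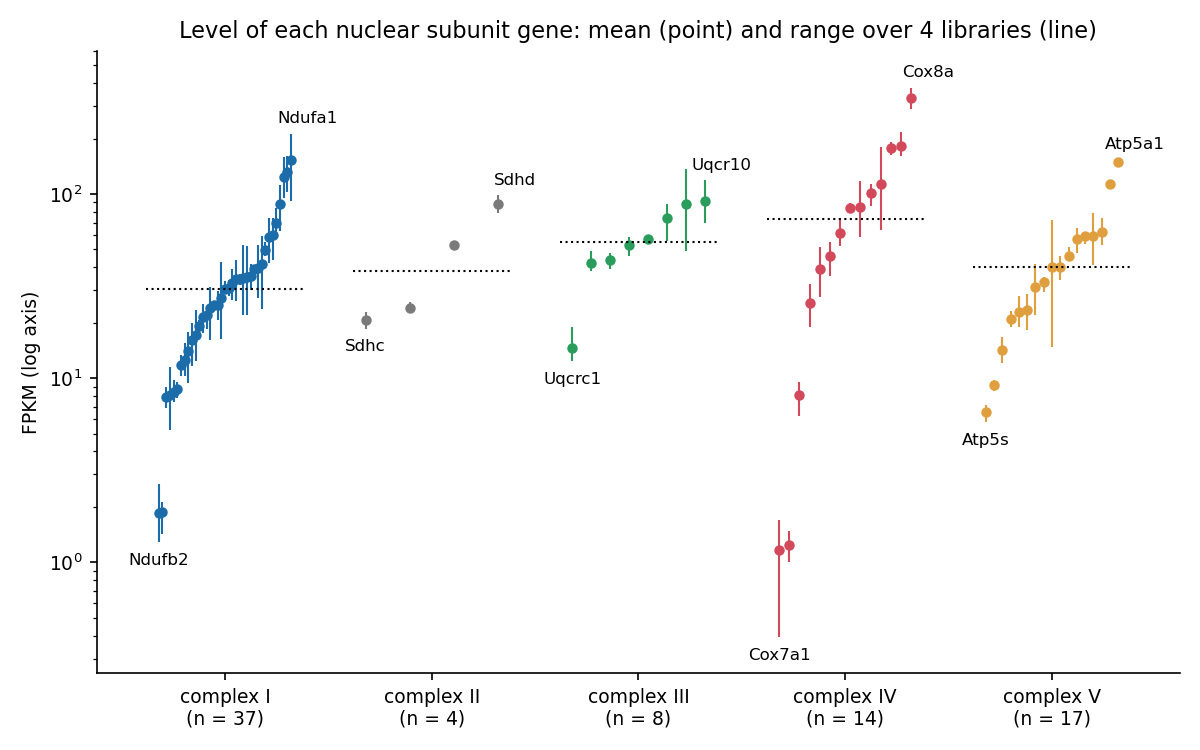
Mean FPKM of each compared member over the 4 libraries (points, log axis) with its lowest and highest library (vertical lines), ordered within each complex; dotted lines mark the median of each complex. Cox8a stands highest with a mean of 334 FPKM, and the medians run from 30.6 in complex I to 73.0 in complex IV.

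Within complex I, the 2 highest members were supernumerary subunits, which surround the core without taking part in electron transfer. Ndufa1, a small subunit needed for assembly, measured 97.0 and 213 FPKM in the wild type and 91.9 and 213 with the transgene. Ndufb11, a subunit of the membrane arm, measured 104 and 160 against 102 and 159 FPKM. Both were high in the libraries numbered 2 of either genotype. The 7 nuclear core subunits form the part that takes electrons from NADH to coenzyme Q. The median of their mean levels was 25.1 FPKM, against 32.0 for the 30 members counted as supernumerary by name. The lowest core subunit was Ndufs1 at 8.75 FPKM. Ndufb2 was the lowest member by FPKM, at 1.53 and 2.67 against 1.29 and 1.93, but per kilobase of its 455-base mRNA it stood at 22.9.

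In complex II, Sdhd, a membrane anchor, measured 87.8 and 98.2 FPKM in the wild type and 78.6 and 88.4 with the transgene. Sdha, the flavoprotein that oxidises succinate, measured 49.7 and 55.1 against 50.4 and 55.8 FPKM. Sdhb, the iron-sulfur subunit, averaged 23.7 and 24.2 FPKM in the 2 genotypes, close to Sdhc. Its summed level in the libraries numbered 2 was 1.08 times that in those numbered 1, against 1.21 to 1.49 times in the other complexes.

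In complex III, the small subunits Uqcr10 and Uqcr11 were highest. Uqcr10 measured 77.7 and 119 FPKM in the wild type and 69.8 and 101 with the transgene, and Uqcr11 at 49.0 and 137 against 57.9 and 111. Both were higher in the libraries numbered 2. Uqcrfs1, the Rieske iron-sulfur protein that carries electrons within the complex, hardly varied, at 56.6 and 55.3 against 58.7 and 56.8 FPKM. Uqcrc1, a core protein on the matrix side, was lowest at 14.4 and 12.8 against 19.0 and 12.4.

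Complex V was led by the catalytic head. Atp5a1 (alpha subunit) measured 141 and 154 FPKM in the wild type and 153 and 154 with the transgene, and Atp5b (beta subunit) at 115 and 109 against 118 and 112. These genes varied little between libraries. The other 3 members of the head averaged from 40.2 to 59.4 FPKM, with a median of 59.4 over the 5 head genes, against 28.3 over the 4 genes of the stalk and 27.1 over 4 small membrane subunits. Atp5s, also called factor B, was the lowest compared member at 6.72 and 7.11 against 5.76 and 6.75 FPKM. It is a member by name but is not listed here as a subunit. Among the listed subunits compared, Atp5g1 was lowest by FPKM, with a mean of 9.16.

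Several subunits come from gene pairs that differ between tissues, and islets expressed mainly the widespread form, with 1 marked exception. Cox6a1, the widespread form of subunit VIa, measured 161 and 180 FPKM in the wild type and 171 and 216 with the transgene. Cox6a2 (chr7:128205435-128206387), the form known from heart and skeletal muscle, was also high, at 63.4 and 142 against 70.2 and 181 FPKM. Cox6a2 thus made up 28.3% and 44.0% of the pair in the wild type and 29.1% and 45.6% in transgenic islets. The ratio of Cox6a2 to Cox6a1 was 0.59 ± 0.277 in the wild type and 0.624 ± 0.303 in transgenic islets (mean ± SD, n = 2 each; 2-sided exact permutation test, p = 0.667). It was higher in the libraries numbered 2 in both genotypes.

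Markers of skeletal muscle were close to 0 in the same libraries. The 6 muscle markers summed to 1.04 to 1.44 FPKM, none passed the filter, Acta1 was the highest at up to 1.26 FPKM, and Mb, which encodes myoglobin, was at 0 in 3 libraries and 0.0638 FPKM in the fourth. Exons of Itgad on the opposite strand cover 10.3% of the exons of Cox6a2, and Itgad stood at 0.437 to 1.59 FPKM. Whether reads were counted by strand is not stated in the labels.

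The other muscle or tissue-specific forms were low. Cox4i1 measured 87.7 and 80.9 FPKM in the wild type and 89.5 and 78.5 with the transgene, and Cox4i2, known from lung and oxygen sensing, at 1.01 and 1.22 against 1.48 and 1.27. Cox7a1, the heart and muscle form of subunit VIIa, was the lowest compared member at 0.392 and 1.59 against 1.02 and 1.69 FPKM. Its partner Cox7a2 measured 58.4 and 73.7 against 52.2 and 62.8. Cox7a2l, listed here in the same set as Cox7a1 and Cox7a2, measured 184 and 191 against 170 and 163 FPKM.

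Cox8a was the highest member of all, at 289 and 377 FPKM in the wild type and 295 and 373 with the transgene, whereas the muscle form Cox8b had a single read, in wild type 2, and the testis form Cox8c had 0 reads throughout. Cox6b1 measured 92.1 and 113 against 85.7 and 113 FPKM, and its testis form Cox6b2 had from 2 to 7 reads. Cox7b measured 40.4 and 54.6 against 35.9 and 52.9 FPKM, while Cox7b2 had at most 2 reads. Each widespread form therefore made up at least 98.4% of its set in every library for Cox4i1, Cox6b1, Cox7b and Cox8a.

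Outside complex IV as named here, Ndufa4 measured 31.5 and 59.0 FPKM in the wild type and 23.8 and 52.0 with the transgene, and its hypoxia-induced relative Ndufa4l2 at 1.42 and 1.94 against 2.13 and 2.04. Both carry a complex I name but are now placed with complex IV. Moving them there left the summed level and the genotype median of either complex within the spread between libraries. The c ring of complex V is built from the same mature protein made by 3 genes. Atp5g2 measured 51.3 and 61.8 against 48.0 and 65.8 FPKM, Atp5g3 at 44.3 and 44.3 against 51.7 and 43.6, and Atp5g1 was lower, as given with its microRNA matches. The gene length of Atp5g1 in the table is 4912 bases against an mRNA of 596, and per kilobase of mRNA it stood at 75.5, beside 215 for Atp5g2 and 140 for Atp5g3.

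**Figure D2:**
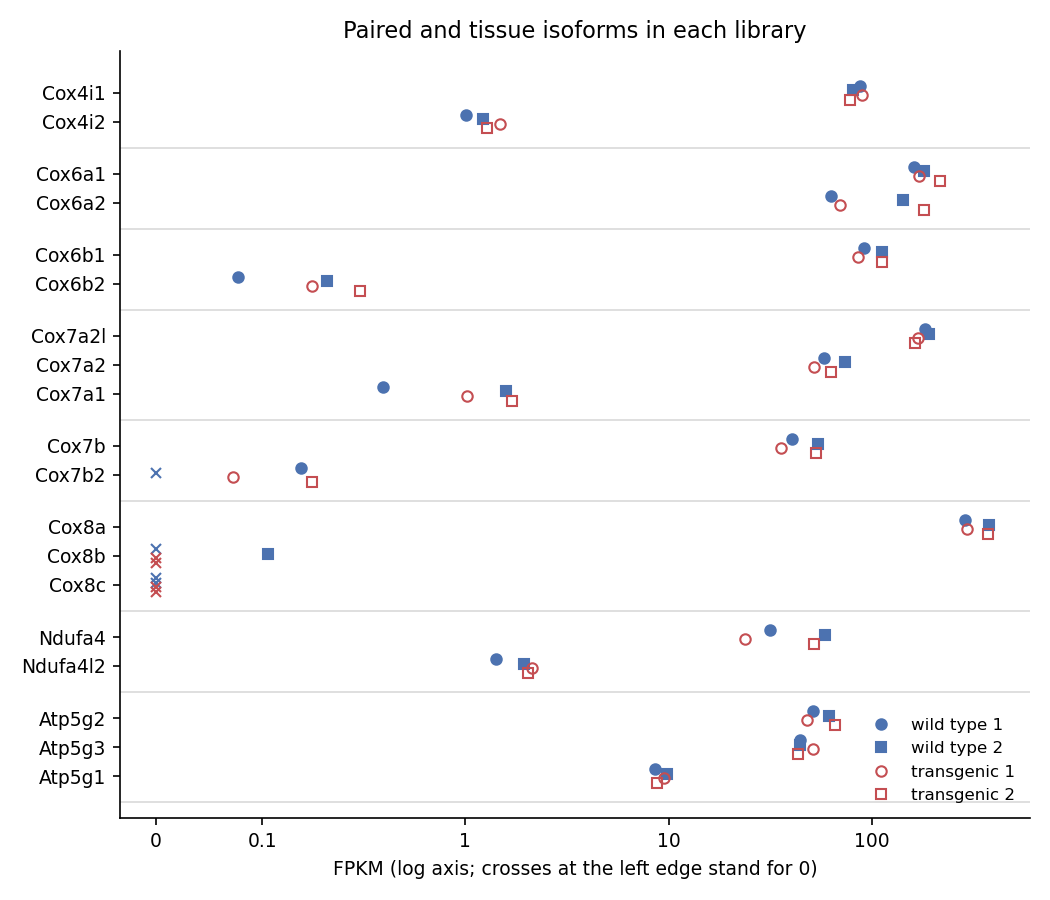
FPKM of paired and tissue isoforms in each library (log axis; crosses at the left edge stand for 0), with circles for number 1, squares for number 2, filled symbols for the wild type and open ones for transgenic islets. Cox6a2 lies within reach of Cox6a1, whereas Cox4i2, Cox6b2, Cox7a1, Cox7b2, Cox8b and Cox8c lie at 1.69 FPKM or below.

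The main comparison asked whether the subunit genes differ in islets whose beta cells carry the miR-29a/b-1 transgene. No member passed the test. With limma on log2(FPKM + 1) and Benjamini-Hochberg adjustment over 12716 genes, 0 of 80 members had an adjusted p under 0.05, beside 0 of all genes (0.0%), and 0 of 80 had an unadjusted p under 0.05, beside 83 genes in all (0.653%). The weighted fit on recovered reads (voom) also called 0 members and 0 genes. The fitted differences ranged from -0.29 (Ndufa4) to 0.3 (Cox7a1). Their standard errors ranged from 0.13 to 0.94 with a median of 0.23, and the 95% interval of a member had a median width of 1.21 on the log2 scale. The spread within a genotype holds the difference between library numbers, which this model leaves out. For Ndufa1 the standard error was 0.58, while the differences within numbers 1 and 2 were -0.08 and 0.00.

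The median log2 difference of the 80 members was -0.05, beside 0.01 over all genes compared. It was -0.05 within number 1 and -0.04 within number 2. By complex it was -0.06 in complex I, 0.01 in complex II, -0.09 in complex III, 0.00 in complex IV and -0.06 in complex V. The sign of the overall median depended on single libraries: it became 0.1 without wild type 2 and 0.11 without transgenic 1, and -0.23 without wild type 1 and -0.24 without transgenic 2. Several lists of marker genes moved with the genotype in the same direction within each number, and others did not. The 15 acinar markers, from the exocrine tissue around islets, summed to 5580 and 1192 FPKM in the wild type and to 7382 and 1984 with the transgene, and the 8 beta cell markers to 223329 and 286193 against 151046 and 270829. The 10 immediate early genes, which cells switch on under stress, summed to 2567 and 552 FPKM in the wild type and to 3530 and 786 with the transgene, and the 5 endothelial markers to 78.0 and 60.0 against 99.4 and 72.7. The 5 alpha cell markers were slightly lower in both numbers, at 14175 and 14038 against 13365 and 13353. Duct markers, at 77.0 and 58.7 against 68.6 and 70.7, and macrophage markers, at 47.3 and 59.9 against 50.9 and 51.6, changed direction between numbers. Among the beta cell markers Ins2 was the highest, at up to 211742 FPKM. The part of these cells and of stress in the members' values was not tested.

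Within numbers, lower values were the more frequent ones. In 34 of the 80 members (42.5%) the transgenic library was lower in both numbers, beside 27.4% of all genes, and in 14 (17.5%) it was higher in both, beside 33.5%. Complex I had 16 lower and 4 higher of 37, complex III 4 and 1 of 8, complex V 7 and 2 of 17, complex II 1 and 1 of 4, and complex IV 6 and 6 of 14. The 6 higher in complex IV were Cox4i2, Cox5a, Cox5b, Cox6a1, Cox6a2 and Cox7a1. These are counts of signs with no test, and none of the differences passed the threshold. Across members the genotype difference went with the GC content of the mRNA (Spearman 0.44, n = 80), as it did across 10773 other coding genes (0.66). These points share the same 4 libraries. With a curve on GC content removed from each library, the members' median became -0.10, beside 0.00 over all genes.

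Both transgenic libraries lay below both wild-type libraries for 8 members (10.0%), beside 9.03% of all genes, and above them for 5 (6.25%), beside 12.2%. The 8 were Ndufb5, Ndufs8, Ndufv2, Uqcrc2, Uqcrh, Cox7a2l, Atp5f1 and Atp5l, and the 5 were Ndufa4l2, Ndufs3, Uqcrfs1, Cox4i2 and Atp5d. The share for the lower members is near the background.

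The 6 members with the smallest unadjusted p are described first, and 5 of them did not overlap between genotypes. Ndufb5, a supernumerary subunit of complex I, measured 8.18 and 8.96 FPKM in the wild type and 7.66 and 6.89 with the transgene, a log2 difference of -0.21 ± 0.13 (SE). Its p was 0.186 in limma, and the adjusted p was 1.0. The genotypes did not overlap, and the difference was -0.08 in number 1 and -0.34 in number 2. Atp5d, the delta subunit of the ATP synthase head, measured 34.3 and 39.0 against 46.2 and 41.5 FPKM, a difference of 0.25 ± 0.17. It was 0.42 in number 1 and 0.08 in number 2.

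Uqcrc2, a core protein of complex III, measured 49.1 and 42.1 FPKM in the wild type and 38.0 and 40.0 with the transgene, a difference of -0.22 ± 0.17. It was -0.36 in number 1 and -0.07 in number 2, and exons of Pdzd9 on the opposite strand cover 19.7% of its exons. Uqcrh, the hinge protein between cytochromes c and c1, measured 54.9 and 58.3 against 46.3 and 52.7 FPKM, a difference of -0.19 ± 0.17, or -0.24 and -0.14 within numbers 1 and 2. Ndufa4l2 differed by 0.21 ± 0.17 (0.37 and 0.05), with 37 to 60 reads per library. Atp5o, the stalk subunit that holds the head, measured 13.8 and 16.8 against 12.1 and 14.1 FPKM, a difference of -0.21 ± 0.17 (-0.18 and -0.24), and here the genotypes overlapped.

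A further pair of members completed the largest separations of their complexes. Cox7a2l differed by -0.18 ± 0.17 (-0.12 in number 1 and -0.23 in number 2), and Atp5l, the g subunit of the membrane part, measured 21.2 and 23.3 FPKM in the wild type and 20.4 and 18.9 with the transgene, a difference of -0.17 ± 0.15 (-0.05 and -0.29). Neither passed the threshold in limma, with an adjusted p of 1.0 for both.

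**Figure D3:**
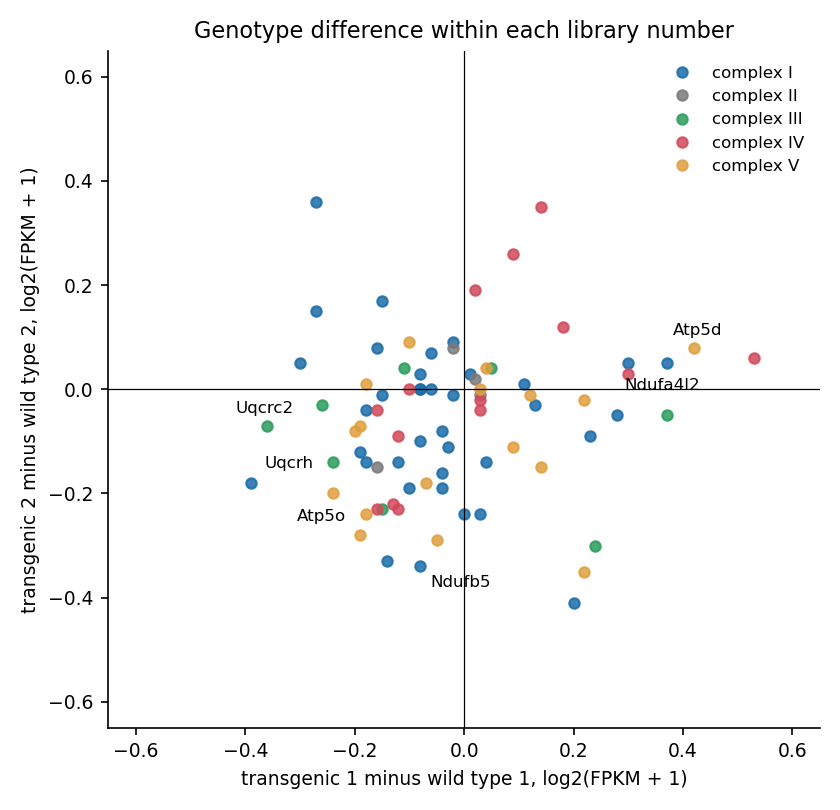
Difference of transgenic minus wild type on the log2(FPKM + 1) scale for each of the 80 compared members, within number 1 (horizontal axis) and within number 2 (vertical axis), coloured by complex; the 6 members with the smallest p are named. More members fall in the lower left corner (34) than in the upper right (14), and none passed the test.

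Summed over its members, each complex differed between genotypes by less than the spread between libraries of a genotype. Complex I summed to 1152 and 1677 FPKM in the wild type and to 1095 and 1665 with the transgene (1415 ± 371 against 1380 ± 403, mean ± SD, n = 2 each; exact permutation p = 0.667). Complex II summed to 183 and 197 against 175 and 189 FPKM. Its transgenic libraries were lower within each number, at 0.954 and 0.96 times the wild type, but the genotypes overlapped (exact permutation p = 0.667, n = 2 each).

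Complex III summed to 411 and 559 FPKM in the wild type and to 384 and 509 with the transgene, 0.936 and 0.909 times the wild type in numbers 1 and 2 (exact permutation p = 0.667, n = 2 each). Complex IV summed to 1099 and 1421 against 1089 and 1435 FPKM, and complex V to 709 and 885 against 721 and 843 (exact permutation p = 1.0 for both, n = 2 each). With 2 libraries against 2 this test cannot reach a p under 0.05. In all 5 complexes both libraries numbered 2 were above both numbered 1.

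**Figure D4:**
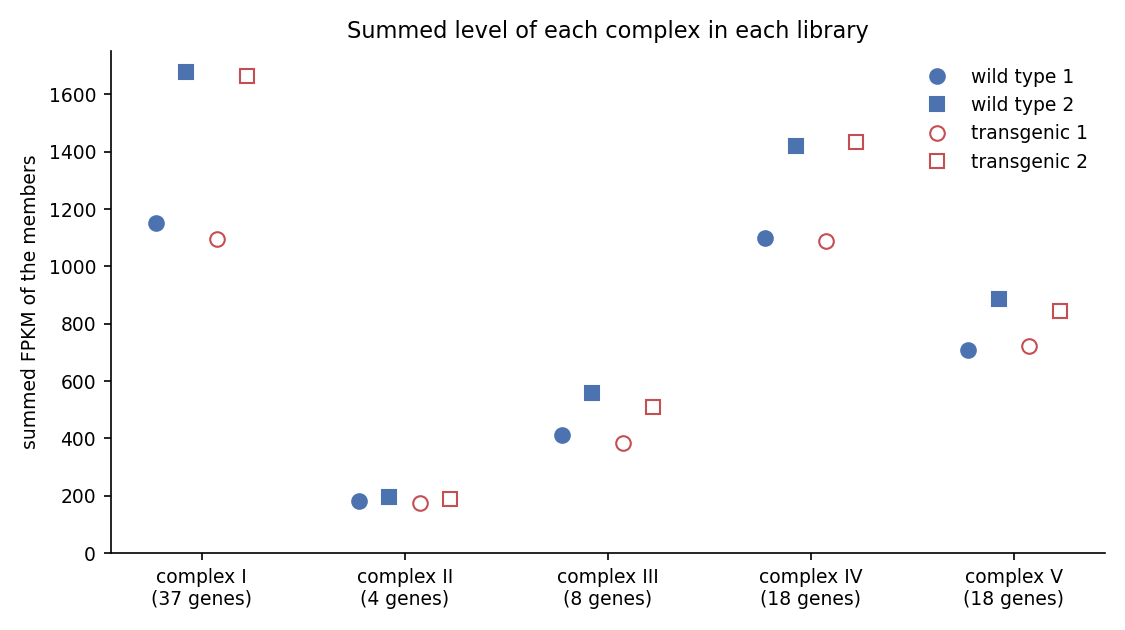
Summed FPKM of the members of each complex in each library (circles for number 1, squares for number 2, filled for the wild type, open for transgenic). The squares lie above the circles in every complex, by 1.49 times in complex I and 1.08 times in complex II, while filled and open symbols of a number lie together.

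The mitochondrially encoded partners did not pass the test. None of the 13 passed the threshold in limma, and none had an unadjusted p under 0.05. Their median difference was -0.25, with 8 of 13 lower in both numbers and 1 higher, beside the 27.4% and 33.5% of all genes given above. The catalytic subunit gene of complex IV, mt-Co1, measured 7902 and 6772 FPKM in the wild type and 5786 and 6095 with the transgene, a difference of -0.30 ± 0.20 (SE; adjusted p = 1.0 in limma). The genotypes did not overlap. mt-Nd6 differed by -0.25 ± 0.18 and mt-Nd4l by -0.79 ± 0.57.

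The summed nuclear to mitochondrially encoded FPKM of a complex was 0.111 and 0.172 in the wild type and 0.137 and 0.186 with the transgene for complex I. For complex IV it was 0.137 and 0.204 against 0.184 and 0.23, and for complex III 0.0849 and 0.119 against 0.107 and 0.114. The transgenic ratio was higher within each number in complexes I and IV, but the genotypes overlapped in all 3 complexes (exact permutation p = 0.667 for complexes I and IV and 1.0 for complex III, n = 2 each). For complex V the ratio was 13.4 and 10.7 against 12.4 and 16.9 (p = 0.667, exact permutation, n = 2 each). It rests on mt-Atp6 and mt-Atp8, which measured only 35.4 to 70.0 and 1.23 to 14.5 FPKM. Their messages overlap, and mt-Co2, mt-Co3, mt-Nd3 and mt-Nd4l were likewise far below mt-Co1, so levels of these 6 genes are uncertain; the part of overlapping genes and of nuclear copies of mitochondrial DNA was not tested.

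Genes that build or supply the chain passed no test between genotypes either. Of 43 assembly factors compared, of 47 listed, 0 passed limma's threshold and 0 had an unadjusted p under 0.05, with a median difference of -0.03. Cox20, which chaperones a mitochondrially made subunit of complex IV, came closest, at 1.99 and 2.10 FPKM in the wild type and 3.12 and 2.59 with the transgene (0.34 ± 0.15; adjusted p = 1.0 in limma). Of 11 regulators of mitochondrial biogenesis, 0 passed at either level, and the mitochondrial RNA polymerase gene Polrmt differed by 0.25 ± 0.12. Of 12 genes for coenzyme Q synthesis, 0 passed, and Coq9 differed by 0.22 ± 0.17. Among 11 further partners, such as cytochrome c and its reductase subunit, 0 passed. Cyc1, the cytochrome c1 gene of complex III that the naming rule leaves out, measured 19.4 and 22.0 against 24.8 and 24.7 FPKM (0.25 ± 0.15).

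The difference that did pass the test lay between library numbers. With limma on log2(FPKM + 1), libraries 2 against libraries 1, 31 of the 80 members were higher in number 2 (38.8%), beside 10.1% of all genes, and 2 were lower (2.5%), beside 10.6%. The members' median log2 difference was 0.32, beside 0.01 over all genes, and it was 0.29 in the wild type and 0.32 in transgenic islets. In 55 members both libraries numbered 2 were above both numbered 1 (68.8%), beside 34.4% of all genes, and in 9 they were below (11.2%), beside 32.4%. The count rests in part on transgenic 1: without it, 19 members were higher, beside 3.08% of all genes, and 1 was lower, beside 3.48%. Without the other libraries in turn, 23 to 27 members were higher, beside 4.95% to 6.02% of all genes. Without a filter on low values, over 29257 genes, 10 members were higher, beside 0.349% of those genes, and 0 were lower, beside 0.588%.

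By complex, 18 of 37 members of complex I were higher in number 2, 6 of 14 in complex IV, 3 of 8 in complex III, 4 of 17 in complex V and 0 of 4 in complex II. The medians were 0.41, 0.36, 0.17, 0.13 and 0.15 in that order. Within complex I the 18 were counted as supernumerary by name (18 of 30, median 0.58), and 0 of the 7 core subunits passed (median 0.15). Ndufa4 is among the 18 and Ndufa4l2 among the 30, although both are now placed with complex IV. These counts by complex were not redone with the move. The 18 were Ndufa1 to Ndufa7, Ndufa12, Ndufa13, Ndufb3, Ndufb4, Ndufb8, Ndufb11, Ndufc1, Ndufc2, Ndufs5, Ndufs6 and Ndufv3. In complex III they were Uqcr10, Uqcr11 and Uqcrb, in complex IV Cox5b, Cox6a2, Cox6c, Cox7b, Cox7c and Cox8a, and in complex V Atp5e, Atp5j, Atp5k and Atp5mpl. Differences between complexes were not tested, because genes of a complex are not replicates.

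The 4 largest differences were in small subunits. Atp5k (chr5:108433244-108434448), the e subunit that helps to join ATP synthase into dimers, measured 14.7 and 17.3 FPKM in the libraries numbered 1 (wild type, then transgenic) and 72 and 56.3 in those numbered 2, a log2 difference of 1.93 ± 0.15 (SE, n = 2 per number; limma, adjusted p = 0.00361), or 3.99-fold on the FPKM. Cox6a2 differed by 1.25 ± 0.14 (limma, adjusted p = 0.00695), a 2.4-fold change, whereas its widespread partner Cox6a1 differed by 0.25 ± 0.12 and did not pass (adjusted p = 0.196). Uqcr11 differed by 1.20 ± 0.14 (2.32-fold) and Ndufa1 by 1.16 ± 0.09 (2.25-fold). For all 4 genes the libraries numbered 2 were high in both genotypes and did not overlap those numbered 1.

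Of the members lower in number 2, Ndufa10, a supernumerary subunit of complex I, measured 15.6 and 14.0 FPKM in wild type 1 and transgenic 1. It measured 10.4 and 10.3 FPKM in wild type 2 and transgenic 2 (-0.48 ± 0.10, adjusted p = 0.025 in limma). Cox5a, a matrix-side subunit of complex IV, measured 9.45 and 9.58 against 6.26 and 7.27 FPKM (-0.44 ± 0.10; limma, adjusted p = 0.0339), in contrast to Cox5b, which was higher by 0.74 ± 0.11. The next lowest, Uqcrc1 (-0.37 ± 0.14) and Sdhc (-0.27 ± 0.09), did not pass. Neither lower call held in each fit that left out a library, whereas 18 of the 31 higher calls did.

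The higher members had short messages. Over the 80 members, the number difference was smaller for longer mRNAs (Spearman -0.51, across genes of the same 4 libraries), against -0.09 over 10773 other coding genes. Among messages of up to 600 bases, the members' median was 0.60 (28 members, 18 higher) and that of 198 other coding genes was 0.28 (38.4% higher). From 600 to 800 bases the medians were 0.33 and 0.17, and 5 of 17 members were higher beside 25.0% of the other genes, a share near theirs. From 800 to 1000 bases the medians were 0.31 and 0.12, with 4 of 9 members higher beside 18.6%. From 1000 to 1500 bases they were 0.15 and 0.06, with 3 of 12 higher beside 10.2%. Other short genes were thus also higher in number 2, by less in the median than the members of the same length.

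With a smooth curve on mRNA length removed from each library, an alternative chosen after seeing the data, 25 members were higher, beside 9.55% of all genes, and 3 were lower, beside 11.4%. The median became 0.18, beside 0.00 over all genes. All 25 higher ones were among the 31. The 6 that no longer passed were Cox8a, Ndufa7, Ndufc2, Ndufs5, Uqcr10 and Uqcrb. By complex, the medians in this fit were 0.27 in complex I, 0.09 in II, 0.00 in III, 0.18 in IV and 0.11 in V. Higher members numbered 15 of 37 in complex I, 0 of 4 in II, 1 of 8 in III, 5 of 14 in IV and 4 of 17 in V. Of the 30 members of complex I counted as supernumerary by name, 15 were higher, Ndufa4 among them (median 0.43). Of the 7 core members 0 were higher (median 0.07). Of the core subunits only Ndufs7 and Ndufs8 have messages under 1000 bases (758 and 780), and they differed by 0.35 ± 0.11 and 0.01 ± 0.11.

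**Figure D5:**
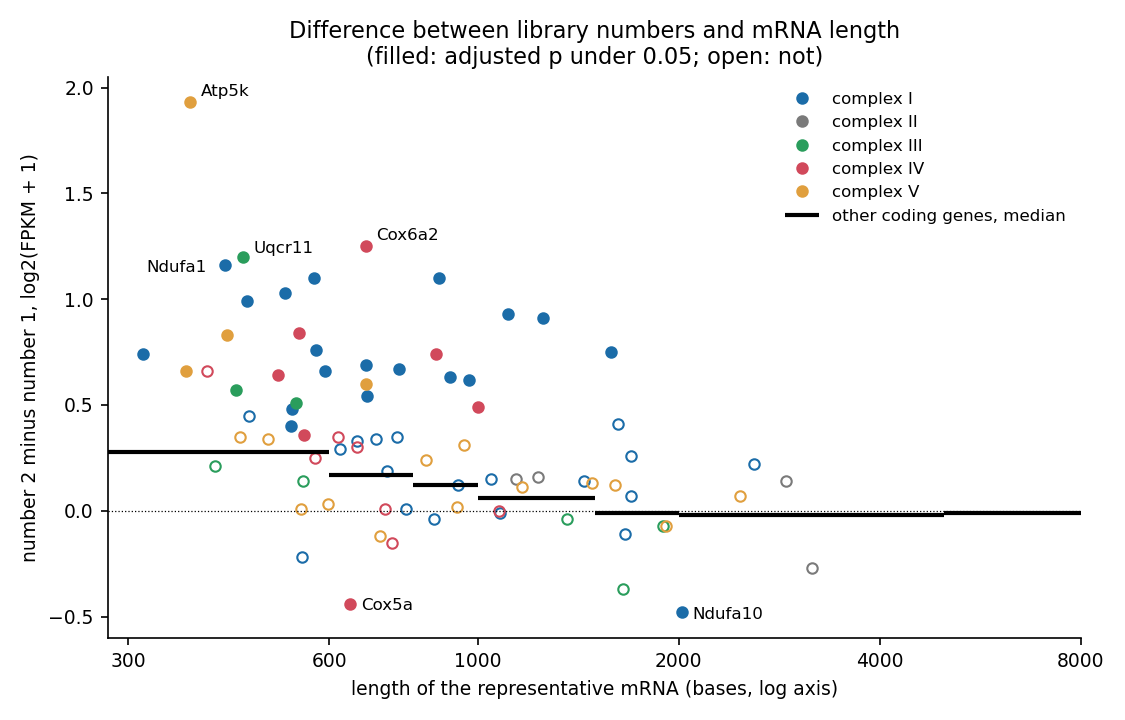
Difference of number 2 minus number 1 on the log2(FPKM + 1) scale against the length of the representative mRNA (log axis) for the 80 members, filled where the adjusted p was under 0.05; black bars give the median of other coding genes in each range of length. Atp5k stands at 1.93, and most filled points lie above the bar of their length.

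Several lists of marker genes moved with the number as well, and others did not. The 15 acinar markers summed to 5580 and 7382 FPKM in number 1 and to 1192 and 1984 in number 2, the 10 immediate early genes to 2567 and 3530 against 552 and 786, and the 4 delta and PP cell markers to 8146 and 8470 against 15108 and 15180. The 8 beta cell markers summed to 223329 and 151046 FPKM in number 1 and to 286193 and 270829 in number 2. Ins2, at up to 211742 FPKM, weighs heavily in this sum, which does not show that each beta cell marker moved. No gene of these 4 lists was at 0 in every library, and all passed the filter. The 5 endothelial markers were lower in number 2, at 78.0 and 99.4 against 60.0 and 72.7 FPKM. The 5 macrophage markers were higher, at 47.3 and 50.9 against 59.9 and 51.6. The numbers overlapped for the 5 alpha cell markers, at 14175 and 13365 against 14038 and 13353. They also overlapped for the duct markers, at 77.0 and 68.6 against 58.7 and 70.7. The part of these cells in the members' difference was not tested.

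Promoters were examined because many subunit genes are known targets of NRF1 and of GABP, also called NRF-2, which coordinate nuclear genes for mitochondria. RefSeq promoters of 300 bases on GRCm38.p6 were matched for 66 of the member symbols. The NRF1 core motif CGCANGCG occurred, on either strand, in 25 of the 66 (37.9%), beside 20.8% of 8538 other compared coding genes and 9.2% of all 27025 promoters. The GABP motif CCGGAAG occurred in 16 (24.2%), beside 21.1% and 9.9%. Examples are shown from 3 members, of which Atp5k and Ndufa5 were higher in number 2 and Cox6a1 is among the highest in islets, with the NRF1 motif in capitals.
Atp5k (chr5:108434431-108434458, minus strand): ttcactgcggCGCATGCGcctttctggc
Ndufa5 (chr6:24527698-24527725, minus strand): gtgtgagctgCGCAGGCGcaaatctacc
Cox6a1 (chr5:115349102-115349129, minus strand): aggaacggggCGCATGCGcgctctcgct
Ndufa5, which sits in the matrix arm of complex I, measured 21.9 and 52.6 FPKM in the wild type and 22.0 and 44.3 with the transgene, a number difference of 1.10 ± 0.11 (limma, adjusted p = 0.00555). Nrf1 and Gabpa are on the list of biogenesis regulators. Of the 11 compared, 0 were higher in number 2, beside 10.1% of all genes, and 1 was lower, near the 10.6% of all genes. Of 43 assembly factors 8 were higher and 2 lower. Of the 11 further partners 3 were higher and 1 lower, and of 12 coenzyme Q genes 1 was higher and 2 lower. The part of NRF1 and GABP in the number difference was not tested. Members with the NRF1 motif that passed the number test were Atp5j, Atp5k, Ndufa5, Ndufa6, Ndufa7, Ndufa12, Ndufb4, Ndufs5, Ndufs6, Uqcr10 and Uqcr11, all higher. Those that did not were Atp5c1, Atp5d, Atp5g2, Atp5g3, Atp5h, Atp5l, Atp5o, Cox6a1, Ndufa8, Ndufa11, Ndufb10, Sdha, Sdhd and Uqcrc1. The promoter of Cox6a2 was not among those matched.

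Some members carry reads that cannot be placed with certainty. Exons of genes on the opposite strand lie over those of 26 members, with the largest shares in Ndufb6 (39.0%, Smim27), Atp5o (35.6%) and Ndufa13 (30.0%, Tssk6). The names also match 11 processed pseudogenes and Ndufb1-ps, a non-coding row that the rule leaves out, at 16.7 and 41.7 FPKM in the wild type and 15.4 and 33.0 with the transgene. Subunit genes with near-identical pseudogenes are therefore uncertain in level. Usmg5, listed as Atp5md in RefSeq and part of ATP synthase, is likewise outside the rule. It measured 203 and 335 against 179 and 268 FPKM, and was higher in number 2 by 0.65 (limma, adjusted p = 0.0319).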

How the data were processed

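RNA of 4 islet libraries was measured, 2 per genotype, grouped by the genotype in the labels. The authors deposited FPKM per gene with gene lengths. HTSeq 0.6.0 and GRCm38 are named in the submitters' processing notes; the aligner, the annotation and the strand setting are not given in the sources used here. FPKM times gene length gave whole multiples of 1 step per library within 0.001 for 100% of values above 0, and these were taken as reads. Floors of 3 reads cover counting error only.

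Genes of at least 1 FPKM in at least 2 libraries were tested on the log2(FPKM + 1) scale with limma 3.58.1 (lmFit, then eBayes with its trend option; R 4.3.3), 2-sided, Benjamini-Hochberg over 12716 genes, threshold 0.05. Genotype was the only term, and library number the only term of the second comparison. The pseudocount shrinks differences of low genes. Sums and ratios were compared by exact permutation of libraries (scipy 1.17.1). The weighted fit (voom) used recovered reads. Both kinds of fit were tested for the genotype comparison on simulated reads. Unlike these data, the simulated reads held no difference between library numbers, so that setting was not covered. The number comparison and voom with library number as a term were not simulated. Messenger RNA length (the shortest of the best-supported coding transcripts), GC content and 3′ UTRs of at least 50 bases came from GENCODE M21, which held 54409 of the gene IDs and all 85 members.

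Members, gene lists, tests and alternatives were chosen with earlier results of these data known; the mRNA length alternatives were added later. Values by library are given for the 2 highest and the lowest member of each complex, the 2 largest non-overlapping genotype differences per complex with a mean of at least 2 FPKM in the higher group, the 6 smallest p (none passed), the isoform sets, the 4 largest number differences in each direction and up to 3 genes per other list. Ndufb8, Ndufa5, Ndufs1, Ndufs7, Ndufs8, Sdhb, Uqcrfs1, Cox5b, Ndufb1-ps and Usmg5 were named after their values were seen. 1 result is not reported here. Alternatives were another pseudocount, 2 other filters, voom, GC and mRNA length curves (lowess span 0.3), rescaling, library number as a term, and leaving out each library.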

Additional observations from a re-analysis of the deposited data

How the results depend on the processing

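No respiratory chain gene was called between genotypes under any of the 15 alternative fits. Over all genes the call count stayed at 0 except with the replicate block on the weighted reads, which called 238 genes (204 higher, 34 lower), and with the replicate block and the GC curve removed, which called 1. With the replicate block alone it was 0 of 12716. An unadjusted p under 0.05 was then reached by 5 of 80 members beside 10.7% of all genes, with the block on the weighted reads by 13 beside 16.0%, and with the block and the GC curve removed by 10 beside 6.49%. Deviations of same-numbered libraries from their genotype mean correlated at 0.775 over all genes and 0.88 over members. With 2 libraries per genotype each such deviation mirrors the other, and the labels do not say that a number marks a shared batch, so the numbers were not taken as pairs. Between numbers, 2630 genes were called; without a filter on low values the count fell to 274, and leaving out a library gave 835 to 1822. For members the count was 33, 10 without a filter, and 20 to 28 with a library left out. The no-filter fit tested 29257 genes. As libraries were left out in turn, the genotype median ranged from -0.30 to 0.20 in complex I (-0.06 with all), -0.06 to 0.01 in complex II (0.01), -0.27 to 0.05 in complex III (-0.09), -0.20 to 0.21 in complex IV (0.00) and -0.23 to 0.08 in complex V (-0.06). The log2 ratio of transgenic to wild type in nuclear over mitochondrial FPKM ranged from -0.09 to 0.54 in complex I (0.19), -0.11 to 0.38 in complex III (0.12), 0.02 to 0.60 in complex IV (0.28) and 0.05 to 0.49 in complex V (0.29). The cause was not tested. Depth limits the isoforms with under 3 reads.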
